A study of Mus musculus with 12 samples.

Results

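The synaptic vesicle and SNARE genes are 40 genes that encode the fusion machinery, the vesicle proteins, the active zone scaffold and the endocytic coat of the nerve terminal. They were chosen by gene name, and all 40 were on the array, covered by 66 of its 39429 probes among 29608 gene names. Their transcripts were measured in the hippocampus of 12 adult female mice about 12 weeks old, killed in diestrus, on 6 Agilent 2-colour arrays of 60-base probes. The MRL/lpr group, 4 mice, lacks a functional Fas gene and develops lupus-like disease. The 4 Fn14koMRL mice (Fn14ko) were littermates bred on MRL/lpr to backcross generation 8, so that they carry the Fas mutation too and have in addition a knockout of Tnfrsf12a, the gene of the TWEAK receptor Fn14. The 4 MRL/MpJ mice (MRL/+), bought from a supplier and not bred with the other groups, are the background strain with intact Fas and Fn14. The probe for Tnfrsf12a was well above background in 4 of 4 mice labelled Fn14koMRL, at levels of 0.151 to 0.189 of the channel median, compared with 0.241 to 0.439 in MRL/lpr and 0.283 to 0.629 in MRL/MpJ. The labels give the hippocampus as the tissue of all 12 mice, while their free-text descriptions also mention the cortex.

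Each array held 2 mice of the same strain, with replicates 1 and 3 of a strain labelled with Cy3 and replicates 2 and 4 with Cy5. Both arrays of a strain lay on 1 slide and were scanned together, so that slide, scan and strain cannot be told apart. The array of MRL/lpr replicates 3 and 4 was weak: the ratio of foreground to background had a median of 1.73 and 1.93, against 4.42 to 12.6 on the remaining arrays, and its mice correlated with those of other arrays at r of 0.263 to 0.492 across genes, where all other mice on different arrays were at 0.857 to 0.994. In MRL/MpJ replicates 2 and 4, the Cy5 channels, the negative-control spots had a median of 208 and 211, compared with 33.2 to 90.7 in the other 10 channels. A level below is the background-subtracted intensity divided by the median of its channel over 10877 spots valid in all 12 mice. Levels of different genes come from different probes and were not set against each other. Tests were run with the 12 mice and with the 10 mice left when the weak array is taken out. The weak array held MRL/lpr mice only, so that the Fn14koMRL and MRL/MpJ mice are the same in both fits. Between these strains, on the same spots, the log2 fold changes do not move and only the estimate of spread does. In the 10 mice MRL/lpr is 2 mice of 1 array, and limma treated them as independent. The 10-mouse fit also keeps more spots, so that 9 members with a value in both fits took in further probes there, and where that bears on a result the 10 mice on the same spots are given too.

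A transmitter is released when syntaxin and SNAP-25 in the plasma membrane wind together with a vesicle synaptobrevin (VAMP), a SNARE complex that synaptotagmins couple to calcium and that NSF and the SNAP adaptors take apart again. Bassoon, Piccolo, RIM and Munc13 hold and prime vesicles at the active zone, and dynamin, amphiphysin and the AP-2 coat retrieve the membrane afterwards. In the hippocampus these proteins serve the glutamatergic terminals of the granule and pyramidal cells, which load glutamate through VGLUT1 (Slc17a7), and the terminals of inhibitory interneurons.

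Of the 40 genes, 33 had a spot valid in all 12 mice and 39 in the 10 mice. In the 12-mouse fit (limma with dye as covariate, Benjamini-Hochberg over 8864 genes, threshold 0.05), 7 members were lower and 1 was higher in MRL/lpr than in MRL/MpJ, where 5.71% of all genes were called lower and 3.46% higher. The 7 were Stx1a, Syngr1, Slc17a7, Sv2a, Vamp1, Syn3 and Pclo, and the higher member was Synpr. Against Fn14koMRL, 2 members (Stx1a and Syngr1) were lower in MRL/lpr and none was higher by limma, where the background was 1.77% lower and 2.21% higher. At an unadjusted p under 0.05 there were 13 of 33 members, beside 36.2% of all genes. Ap2a2 and Syn3 were the 2 members lower in Fn14koMRL than in MRL/MpJ and none was higher in limma, where the background was 0.474% lower and 0.0451% higher. At an unadjusted p under 0.05 there were 11 members, beside 15.3% of all genes. The median log2 fold change of the 33 members was -0.52, -0.36 and -0.27 in the 3 comparisons, that of all genes -0.01, 0.03 and -0.16. The comparisons share their groups and are not independent of each other.

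**Figure D1:**
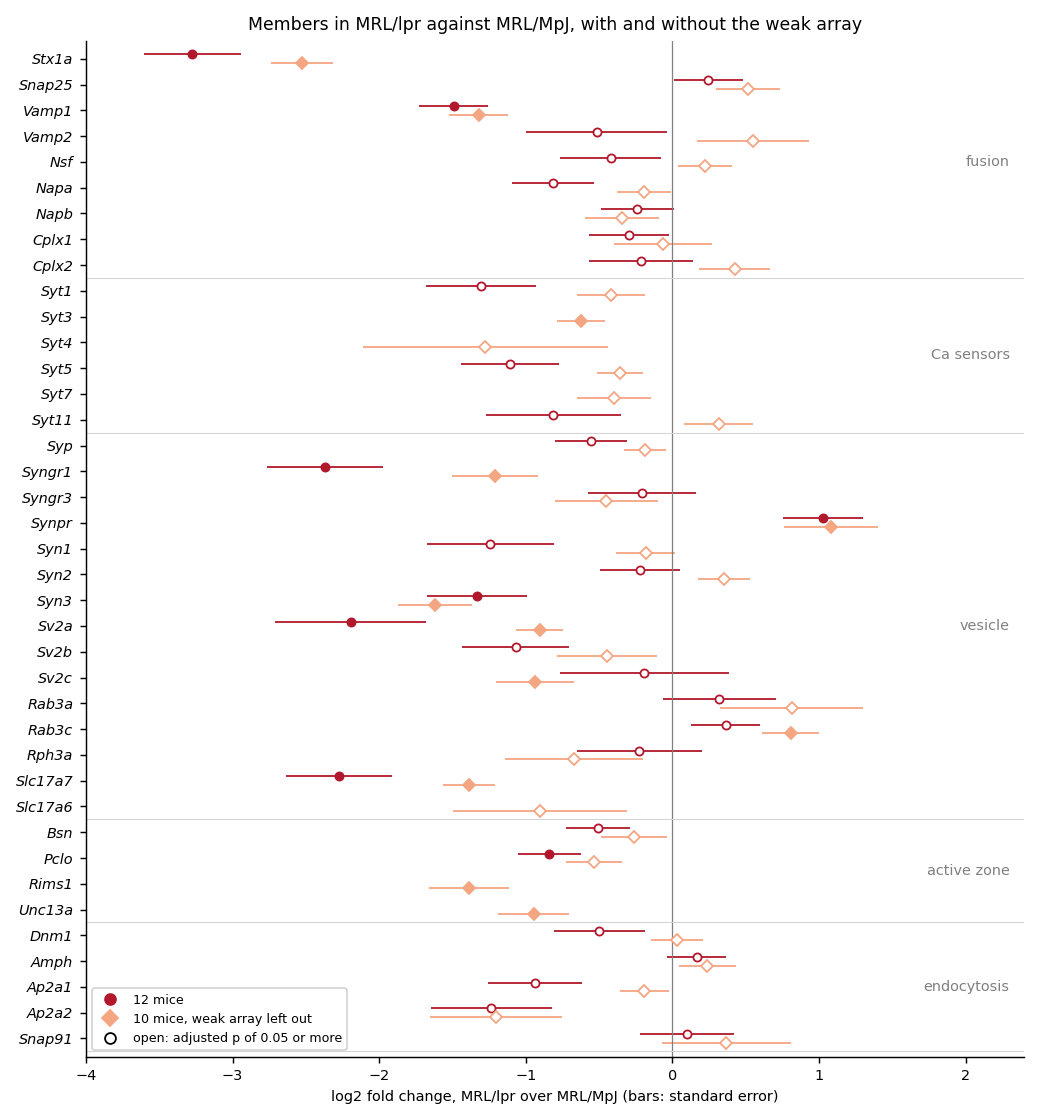
Log2 fold change of MRL/lpr over MRL/MpJ (horizontal axis, bars are standard errors) for each member by role, in the 12-mouse fit (circles, 33 members) and the 10-mouse fit (diamonds, 39 members). Filled symbols passed an adjusted p of 0.05; Stx1a is farthest to the left in both fits, at -3.28 and -2.53.

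The transcripts whose levels carry these calls were read by the following probes, given by the first 30 of 60 bases as deposited, with the probe's mm9 position. Both Syngr1 probes are shown because they differ in what they measured, and the Pclo probes because their mean gave its level.
Stx1a, chr5:135526477-135526536, plus strand: agcaggccatagtcctaacaggcatggtaa
Vamp1, chr6:125171818-125171877, plus strand: ttaggtgtagttggcattcgttcttctggg
Syngr1, valid in all 12 mice, chr15:79949191-79949250, plus strand: agagatcctttgagagaatcctatttcatc
Syngr1, not valid in all 12 mice, chr15:79941040-79941099, plus strand: atgtgtacttcccgcagatcagcagtgtca
Synpr, chr14:14447766-14447825, plus strand: ctgtgatgttgaaagcagtttagcacaaaa
Syn3, chr10:85518277-85518336, minus strand: gccaaggctgagacaatccgcaacctgagg
Sv2a, chr3:95998499-95998558, plus strand: aggggtaccactctactgtctaatataagc
Slc17a7, chr7:52430841-52430900, plus strand: ttcaaggctcgcctaaccaattctacattt
Pclo, chr5:14795934-14795993, plus strand: gtatcagctgtgttgggcatgtgaatatcc
Pclo, chr5:14682209-14682268, plus strand: aacccctccctgatgacataagtccacaga
Ap2a2, chr7:148818293-148818352, plus strand: ccaggattgctatagactgagctgtatggg

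Among the SNAREs, Stx1a, which encodes syntaxin 1A, the plasma membrane SNARE of fast release, was the member farthest from MRL/MpJ. Its level was 1.36, 1.38, 0.599 and 0.617 in MRL/lpr replicates 1 to 4, 3.92, 4.19, 6.75 and 4.33 in Fn14koMRL and 8.55, 10.4, 8.39 and 8.20 in MRL/MpJ. No mouse of any strain overlapped another strain, with MRL/lpr lowest and Fn14koMRL between. The log2 fold change of MRL/lpr was -3.28 ± 0.33 (SE, adjusted p = 0.00064) against MRL/MpJ and -2.36 ± 0.33 (adjusted p = 0.0062) against Fn14koMRL, each with an exact permutation p of 0.0286, the smallest that 4 mice against 4 can give. Without the weak array, with 2 MRL/lpr mice of 1 array, it was -2.53 ± 0.21 (adjusted p = 6.46e-05) and -1.86 ± 0.21 (adjusted p = 0.000639) in limma. Fn14koMRL differed from MRL/MpJ by -0.92 ± 0.33 (adjusted p = 0.196) with 12 mice and by -0.67 ± 0.17 (adjusted p = 0.0237) with 10. The mice of these strains were the same in both fits. Within Cy3 alone the difference between MRL/lpr and MRL/MpJ was -3.23 and within Cy5 -3.32. With array as a random block (consensus correlation 0.71), Stx1a was the only member called in any comparison, in MRL/lpr against MRL/MpJ (adjusted p = 0.0142), where the other 7 called members stood at adjusted p of 0.0846 to 0.337. Of the MRL/lpr mice, 3 of 4 had a Stx1a signal well above background, 3 had one for Sv2a and 2 for Syngr1 and Syn3, as did all mice of the other strains.

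Vamp1 and Vamp2 encode synaptobrevins, the SNAREs carried by the vesicle. Vamp1 was at 2.01, 2.39, 2.42 and 1.94 in MRL/lpr, at 3.02, 3.54, 4.29 and 2.91 in Fn14koMRL and at 4.62, 7.36, 5.60 and 7.48 in MRL/MpJ. The strains again did not overlap, and the mice of the weak array stood among the other MRL/lpr mice. Vamp1 was lower in MRL/lpr than in MRL/MpJ by -1.49 ± 0.24 (log2, adjusted p = 0.0070), and without the weak array by -1.32 ± 0.20 (adjusted p = 0.0020). Against Fn14koMRL the log2 difference was -0.64 ± 0.24 (adjusted p = 0.103), and -0.72 ± 0.20 in the 10-mouse fit (adjusted p = 0.0499), where Fn14koMRL was lower than MRL/MpJ by -0.60 ± 0.16 (adjusted p = 0.0288). A second Vamp1 probe gave a signal well above background in MRL/lpr alone, in 2 mice. Vamp2 was at 9.60, 10.4, 2.71 and 3.01 in MRL/lpr, at 11.5, 11.6, 17.5 and 14.0 in Fn14koMRL and at 11.7, 4.92, 11.98 and 4.96 in MRL/MpJ. The low MRL/lpr values were those of the weak array and the low MRL/MpJ values those of the Cy5 channels. Its log2 fold change against MRL/MpJ was -0.52 ± 0.48 (adjusted p = 0.437) with 12 mice and 0.55 ± 0.38 (adjusted p = 0.335) with 10. In the 10-mouse fit Vamp2 was called higher in Fn14koMRL than in MRL/MpJ (1.07 ± 0.31, adjusted p = 0.036), by 0.27 within Cy3 and 1.37 within Cy5 on the scale of the 10877 spots.

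Snap25, the other plasma membrane SNARE, was at 11.1, 16.1, 12.096 and 11.1 in MRL/lpr, at 6.40, 9.99, 8.99 and 9.58 in Fn14koMRL and at 11.3, 11.7, 8.52 and 10.9 in MRL/MpJ. MRL/lpr overlapped MRL/MpJ and lay above every Fn14koMRL mouse. Snap25 differed on the log2 scale by 0.25 ± 0.23 (adjusted p = 0.447) against MRL/MpJ and 0.53 ± 0.23 (adjusted p = 0.129) against Fn14koMRL with 12 mice, and by 0.51 ± 0.22 (adjusted p = 0.132) and 0.55 ± 0.22 (adjusted p = 0.159) with 10. The genes of the complex's disassembly, Nsf and the SNAP adaptors Napa and Napb, and those of the complexins that clamp and promote fusion, Cplx1 and Cplx2, passed in no comparison of either fit. Their log2 fold changes against MRL/MpJ ran from -0.81 to -0.21 with 12 mice and from -0.35 to 0.42 with 10.

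Of the synaptotagmins, Syt1 is the calcium sensor of fast release. It was at 10.9, 11.4, 4.30 and 3.92 in MRL/lpr, at 10.5, 15.5, 14.2 and 15.3 in Fn14koMRL and at 15.4, 14.9, 15.6 and 22.0 in MRL/MpJ. The mice of the weak array were the lowest of the 12, and the other MRL/lpr mice lay within the Fn14koMRL range. On the log2 scale MRL/lpr differed from MRL/MpJ by -1.31 ± 0.38 (adjusted p = 0.0517) with 12 mice and -0.42 ± 0.23 (adjusted p = 0.223) with 10. Syt5 and Syt11 showed the same kind of dependence on the weak array, at -1.11 and -0.81 with 12 mice and at -0.36 and 0.32 with 10, and did not pass in either fit.

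Syt3, Syt4, Syt7 and Syt2 had no spot valid in all 12 mice, and only 2 MRL/lpr mice had signals of Syt3, Syt4 and Syt7 well above background. Syt3 was at 1.35, 1.18, 0.228 and 0.341 in MRL/lpr, at 0.971, 1.05, 1.31 and 1.06 in Fn14koMRL and at 2.00, 2.76, 1.90 and 2.14 in MRL/MpJ. Every MRL/MpJ mouse was above all mice of the other strains. In the 10-mouse fit Syt3 was lower than in MRL/MpJ both in MRL/lpr (-0.62 ± 0.17, adjusted p = 0.0303) and in Fn14koMRL (-0.74 ± 0.14, adjusted p = 0.0066). Syt4 was at 0.260, 0.740, 0.271 and 0.333 in MRL/lpr, at 0.308, 0.401, 0.0222 and 0.135 in Fn14koMRL and at 0.898, 1.45, 1.15 and 1.33 in MRL/MpJ. It was lower in Fn14koMRL than in MRL/MpJ (-2.85 ± 0.68, adjusted p = 0.0182), while -1.28 ± 0.84 in MRL/lpr did not pass (adjusted p = 0.306). Syt7 passed in no comparison, and Syt2 was well above background in 1 Fn14koMRL mouse and in none of the other 11, so that no fold is given. In the fit with no filter on dim spots, which could test all 40 members, none of these 4 synaptotagmins passed in any comparison, with adjusted p of 0.0716 to 0.958.

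Among the genes of the vesicle membrane, Slc17a7, the glutamate transporter of cortical and hippocampal excitatory terminals, was at 4.03, 3.11, 1.51 and 1.12 in MRL/lpr, at 3.75, 4.19, 4.98 and 3.80 in Fn14koMRL and at 11.2, 9.94, 10.3 and 10.1 in MRL/MpJ. All 8 mice with the Fas mutation were below all 4 MRL/MpJ mice, and MRL/lpr replicate 1 lay among the Fn14koMRL mice. The log2 fold change of MRL/lpr over MRL/MpJ was -2.27 ± 0.36 (adjusted p = 0.0070), and -1.39 ± 0.18 without the weak array (adjusted p = 0.000752). That of Fn14koMRL over MRL/MpJ was -1.32 ± 0.36 (adjusted p = 0.116) with 12 mice and -1.07 ± 0.14 (adjusted p = 0.0017) with 10. MRL/lpr and Fn14koMRL differed by -0.95 ± 0.36 (adjusted p = 0.106) and, without the weak array, by -0.32 ± 0.18 (adjusted p = 0.325). Slc17a6, which encodes the transporter VGLUT2, was at 0.0994 to 0.310 in MRL/lpr, 0.122 to 0.900 in Fn14koMRL and 0.214 to 0.436 in MRL/MpJ. It could be tested in the 10 mice only and did not pass there. In the fit with no filter on dim spots it was lower in MRL/lpr than in Fn14koMRL (-2.57 ± 0.67, adjusted p = 0.0326), where the median of the genes was itself at -1.41.

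Sv2a, Sv2b and Sv2c encode the SV2 glycoproteins of the vesicle. Sv2a was at 2.55, 3.27, 0.581 and 0.631 in MRL/lpr, at 2.49, 3.04, 2.78 and 2.58 in Fn14koMRL and at 4.42, 9.11, 4.77 and 6.98 in MRL/MpJ. Outside the weak array MRL/lpr overlapped Fn14koMRL, and both lay below MRL/MpJ. Sv2a was lower in MRL/lpr than in MRL/MpJ by -2.19 ± 0.52 (log2, adjusted p = 0.0293), and by -0.90 ± 0.16 without the weak array (adjusted p = 0.0047), where Fn14koMRL was lower by -0.91 ± 0.13 (adjusted p = 0.0024). The log2 difference between MRL/lpr and Fn14koMRL was then 0.00 ± 0.16. Sv2b passed in neither fit. Sv2c was at 0.0849, 0.163, 0.227 and 1.02 in MRL/lpr, at 0.122, 0.211, 0.0945 and 0.167 in Fn14koMRL and at 0.105, 0.614, 0.135 and 0.621 in MRL/MpJ. MRL/lpr replicate 4, of the weak array, was the highest of the 12, and in MRL/MpJ the Cy5 mice were far above the Cy3 mice. The log2 fold change of MRL/lpr over MRL/MpJ was -0.19 ± 0.57 (adjusted p = 0.815) with 12 mice, and with 10 mice, where a second probe came in, Sv2c was called lower (-0.94 ± 0.27, adjusted p = 0.039).

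Syngr1, a synaptogyrin of the vesicle membrane, was at 1.01, 1.43, 0.341 and 0.512 in MRL/lpr, at 2.20, 2.35, 2.79 and 1.88 in Fn14koMRL and at 3.89, 2.89, 4.53 and 3.54 in MRL/MpJ. As for Stx1a and Vamp1, the 3 strains did not overlap. MRL/lpr was lower than MRL/MpJ by -2.37 ± 0.40 (log2, adjusted p = 0.0081) and than Fn14koMRL by -1.69 ± 0.40 (adjusted p = 0.0408). Without the weak array and with the same probe the differences were -1.61 ± 0.23 (adjusted p = 0.000917) and -0.93 ± 0.23 (adjusted p = 0.0313). They were -1.21 ± 0.29 (adjusted p = 0.020) and -0.82 ± 0.29 (adjusted p = 0.113) in the 10-mouse fit, which averages in the second Syngr1 probe. That probe, well above background in 2 MRL/lpr, 4 Fn14koMRL and 2 MRL/MpJ mice, differed by -0.09 (log2) between MRL/lpr and MRL/MpJ with 12 mice, where the valid probe differed by -2.37, and by 0.27 without the weak array. Syngr3 did not pass in either fit.

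Synpr, the synaptoporin of the vesicle membrane, was the member called in the opposite direction. Its level was 1.52, 1.27, 1.46 and 1.17 in MRL/lpr, 1.08, 1.28, 0.996 and 1.06 in Fn14koMRL and 0.923, 0.395, 1.08 and 0.493 in MRL/MpJ. Every MRL/lpr mouse was above every MRL/MpJ mouse, and the lowest MRL/MpJ values were those of Cy5. The log2 fold change of MRL/lpr over MRL/MpJ was 1.03 ± 0.27 (adjusted p = 0.0406), 1.08 ± 0.32 without the weak array (adjusted p = 0.0451), 0.58 within Cy3 and 1.47 within Cy5. Fn14koMRL was called higher than MRL/MpJ with 10 mice (0.82 ± 0.26, adjusted p = 0.0479), with 0.06 within Cy3 and 1.40 within Cy5 on the scale of the 10877 spots. A second Synpr probe, averaged in by the 10-mouse fit alone, differed between MRL/lpr and MRL/MpJ by 0.85 with 12 mice and by -0.13 with 10.

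The synapsins tether vesicles to each other in the reserve pool. Syn3 was at 0.224, 0.224, 0.366 and 0.442 in MRL/lpr, at 0.200, 0.184, 0.232 and 0.152 in Fn14koMRL and at 0.487, 1.19, 0.764 and 0.738 in MRL/MpJ. Each MRL/MpJ mouse was above all mice of the other strains. Syn3 was lower in MRL/lpr (-1.33 ± 0.34, adjusted p = 0.0374) and in Fn14koMRL (-1.99 ± 0.34, adjusted p = 0.0359) than in MRL/MpJ, and in the 10-mouse fit by -1.62 ± 0.26 (adjusted p = 0.0024) and -1.72 ± 0.21 (adjusted p = 0.0011). The levels and the 12-mouse values came from 1 of the 4 Syn3 probes, the only one valid in all 12 mice. A second probe was averaged in by the 10-mouse fit, and the first alone gave -1.76 ± 0.31 (adjusted p = 0.0035) and -1.99 ± 0.25 (adjusted p = 0.000568) in the 10 mice. Syn1 and Syn2 did not pass: Syn1 stood at -1.24 ± 0.43 (adjusted p = 0.0781) against MRL/MpJ with 12 mice and at -0.18 ± 0.20 (adjusted p = 0.55) with 10.

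Syp encodes synaptophysin, a widely used marker of synaptic vesicles. It was at 21.5, 22.2, 17.6 and 15.5 in MRL/lpr, at 15.9, 20.9, 18.4 and 20.3 in Fn14koMRL and at 22.7, 33.03, 23.9 and 33.9 in MRL/MpJ. All MRL/MpJ mice were above the other 8. The log2 fold change against MRL/MpJ was -0.55 ± 0.25 (adjusted p = 0.129) in MRL/lpr and -0.57 ± 0.25 (adjusted p = 0.292) in Fn14koMRL, and with 10 mice it was -0.19 ± 0.14 (adjusted p = 0.376) and -0.32 ± 0.12 (adjusted p = 0.0718). With 10 mice on the 10877 spots Syp was called lower in Fn14koMRL (-0.57 ± 0.13, adjusted p = 0.0104). Rab3a and Rab3c are vesicle GTPases that bind RIM, and Rph3a encodes their effector rabphilin. Rab3c was at 3.12, 3.68, 2.59 and 2.03 in MRL/lpr, at 2.39, 2.63, 2.24 and 3.25 in Fn14koMRL and at 2.03, 2.17, 1.89 and 2.65 in MRL/MpJ. Only without the weak array, where the MRL/lpr mice are the first 2, was it called higher in MRL/lpr than in MRL/MpJ (0.81 ± 0.19, adjusted p = 0.0197), and Fn14koMRL was higher than MRL/MpJ by 0.51 ± 0.16 (adjusted p = 0.0427). Its 3 probes differed, on the scale of the 10877 spots. In MRL/lpr against MRL/MpJ they stood at 0.45, 1.05 and -0.50 with 12 mice and at 0.52, 1.45 and 0.22 with 10. In Fn14koMRL against MRL/MpJ they stood at 0.37, 0.71 and -0.23. Rab3a and Rph3a passed in neither fit.

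In the active zone, Pclo, the gene of the scaffold protein Piccolo, was at 1.03, 0.907, 0.921 and 0.8286 in MRL/lpr, at 0.930, 1.46, 0.949 and 1.48 in Fn14koMRL and at 1.42, 2.00, 1.28 and 2.02 in MRL/MpJ. MRL/lpr lay below every MRL/MpJ mouse and overlapped Fn14koMRL. The log2 fold change of MRL/lpr over MRL/MpJ was -0.84 ± 0.22 (adjusted p = 0.0376), and -0.54 ± 0.19 in the 10-mouse fit (adjusted p = 0.081), which averages 4 probes. With 10 mice on the same 2 probes it was -0.77 ± 0.20 (adjusted p = 0.0236). Its 2 probes valid in all 12 mice disagreed, at -1.16 and 0.89, and without the weak array stood at -0.78 and -0.49.

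Rims1 and Unc13a, the genes of the priming factors RIM1 and Munc13-1, could be tested in the 10 mice only. Rims1 was at 0.0678, 0.0764, 0.127 and 0.288 in MRL/lpr, at 0.0968, 0.112, 0.0626 and 0.0983 in Fn14koMRL and at 0.245, 0.241, 0.181 and 0.185 in MRL/MpJ. Every MRL/MpJ mouse was above the other strains except for MRL/lpr replicate 4 of the weak array, which was the highest of all. Without that array Rims1 was lower than in MRL/MpJ in MRL/lpr (-1.39 ± 0.27, adjusted p = 0.0082) and in Fn14koMRL (-0.97 ± 0.22, adjusted p = 0.0158). Unc13a was at 0.0884, 0.0802, 0.159 and 0.252 in MRL/lpr, at 0.0806, 0.107, 0.130 and 0.0987 in Fn14koMRL and at 0.138, 0.279, 0.138 and 0.205 in MRL/MpJ. The mice of the weak array lay within the MRL/MpJ range, and without them Unc13a was lower in MRL/lpr than in MRL/MpJ (-0.95 ± 0.24, adjusted p = 0.0258). In MRL/MpJ, 2 mice had signals of these genes well above background. With no filter on dim spots and 12 mice, neither gene was called against MRL/MpJ (adjusted p = 0.153 and 0.164 in MRL/lpr), and Unc13a was lower in MRL/lpr than in Fn14koMRL (-1.11 ± 0.34, adjusted p = 0.0487), less than the median of -1.41 of the genes in that fit. Bsn, the gene of the scaffold Bassoon, passed in neither fit.

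Of the endocytic genes, Ap2a2, an alpha subunit of the AP-2 clathrin adaptor, was at 0.292, 0.520, 0.486 and 0.451 in MRL/lpr, at 0.225, 0.330, 0.0577 and 0.165 in Fn14koMRL and at 0.784, 1.64, 0.695 and 1.14 in MRL/MpJ. MRL/MpJ lay above both other strains, and 3 of the 4 Fn14koMRL mice were below all MRL/lpr mice. Ap2a2 was lower in Fn14koMRL than in MRL/MpJ by -2.62 ± 0.41 (log2, adjusted p = 0.030) and by -2.37 ± 0.37 in the 10-mouse fit (adjusted p = 0.0032). In MRL/lpr it stood at -1.23 ± 0.41 (adjusted p = 0.074) and -1.20 ± 0.45 (adjusted p = 0.0923). Ap2a1, the other alpha subunit, was at -0.94 ± 0.32 (adjusted p = 0.075) in MRL/lpr with 12 mice and at -0.19 ± 0.17 with 10. Snap91 is the gene of the clathrin assembly protein AP180. Its level was 2.23, 2.65, 1.88 and 2.97 in Fn14koMRL and 2.09, 1.02, 1.37 and 0.805 in MRL/MpJ. In MRL/lpr it was at 1.05, 1.95, 1.20 and 1.27. Snap91 was called higher in Fn14koMRL than in MRL/MpJ with 10 mice (1.20 ± 0.36, adjusted p = 0.0389). The lowest MRL/MpJ values were those of Cy5, and within Cy3 these strains overlapped. On the scale of the spots valid in all 12 mice, the log2 difference was 0.27 within Cy3 and 1.63 within Cy5. Dnm1 (dynamin 1) and Amph (amphiphysin) passed in neither fit.

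**Figure D2:**
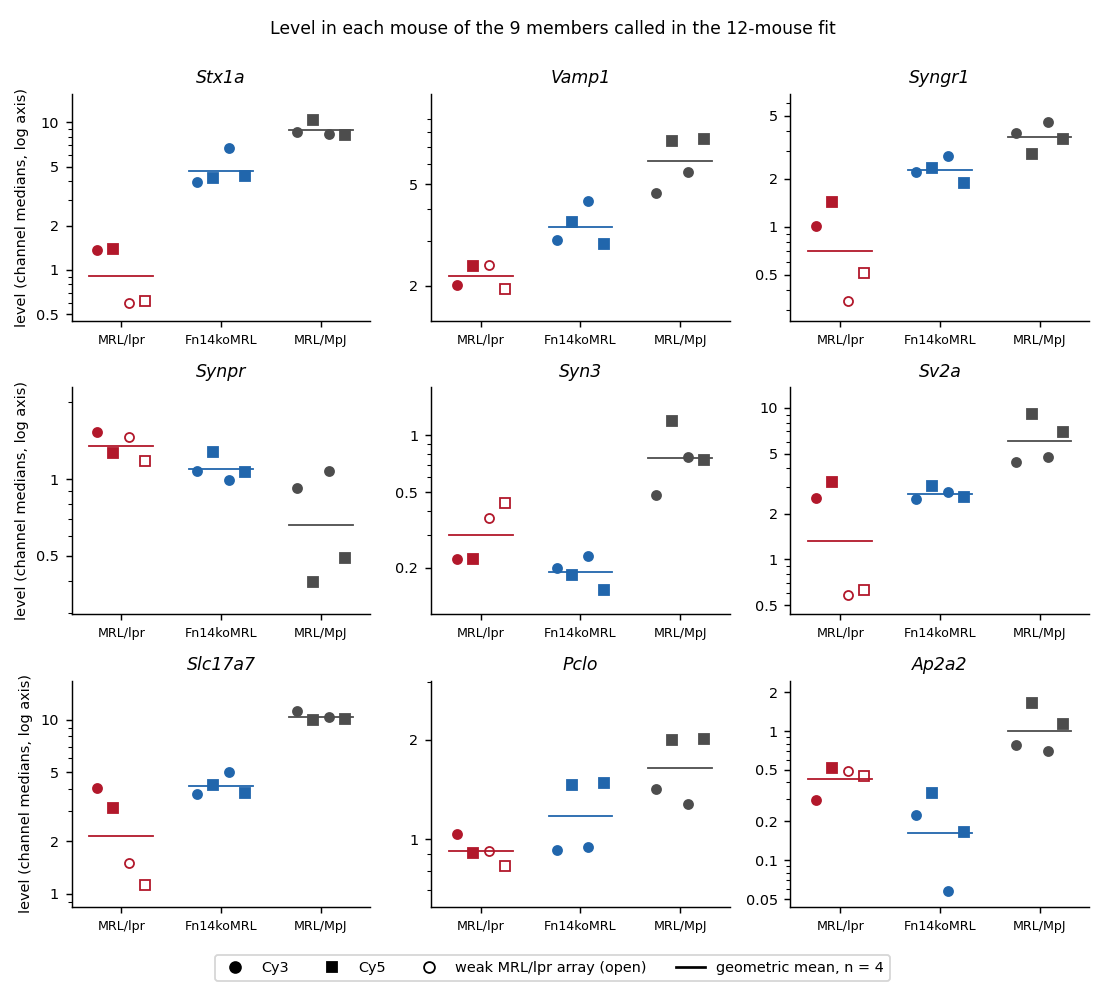
Level in each mouse (channel medians, log axis) of the 9 members called in a comparison of the 12-mouse fit, by strain; circles are Cy3, squares Cy5, open symbols the weak array and bars geometric means of 4 mice. For Stx1a, Vamp1 and Syngr1 the 3 strains do not overlap, and for Slc17a7 all 8 mice of the other strains lie below the 4 MRL/MpJ mice at 9.94 to 11.2.

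Across the members, 15 of 33 lay lower in all MRL/lpr mice than in any MRL/MpJ mouse and 1 lay higher, where 11.6% and 4.58% of all genes did. The counts were 6 lower and 1 higher against Fn14koMRL (background 10.3% and 11.2%), and 9 lower and 0 higher for Fn14koMRL against MRL/MpJ (background 14.1% and 5.88%). In the 10-mouse fit, 10 of 39 members were lower and 2 higher in MRL/lpr than in MRL/MpJ, beside 9.61% and 6.11% of 17936 genes. Against Fn14koMRL, 2 were lower and 0 higher by limma, beside 5.03% and 4.09%, and 7 were at an unadjusted p under 0.05, beside 23.3% of all genes. For Fn14koMRL against MRL/MpJ, 9 were lower and 4 higher (Rab3c, Snap91, Synpr and Vamp2), beside 11.1% and 10%. The 10-mouse fit divides each channel by its median over 25621 spots, and relative to the same 10 mice scaled on the 10877 spots this moved the median of the shared genes by 0.16 (log2) in MRL/lpr against MRL/MpJ, by -0.09 against Fn14koMRL and by 0.25 in Fn14koMRL against MRL/MpJ. On those 10877 spots, 11 of 33 members were lower and 3 higher in Fn14koMRL than in MRL/MpJ, and Rab3c was not among the latter. Dnm1, Pclo, Sv2c, Syngr1 and Syp were lower there and not in the 10-mouse fit.

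Of the members called in the 12-mouse fit, 7 of 8 were called again in the 10-mouse fit for MRL/lpr against MRL/MpJ (all but Pclo), 1 of 2 against Fn14koMRL (Stx1a) and 2 of 2 for Fn14koMRL against MRL/MpJ. With 10 mice on the same spots, 8 of 8, 2 of 2 and 2 of 2 were called again. The 10 mice are part of the 12 that gave these calls, so that neither count is a separate test of them. In the weak array, 25 of the 33 members were lower than in the other MRL/lpr array, compared with 49.4% of all genes, and 11 by more than 1 on the log2 scale, compared with 24.9%. The median gap was -0.56 for the members and 0.03 for all genes. Between the 2 Fn14koMRL arrays 11 and between the 2 MRL/MpJ arrays 12 of the 33 were lower in the second, with medians of 0.09 and 0.10. The coefficient of variation over 4 mice had a median of 36.6% over the members in MRL/lpr, 17.01% in Fn14koMRL and 22.3% in MRL/MpJ, compared with 51.4%, 15.8% and 27.5% over all genes.

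**Figure D3:**
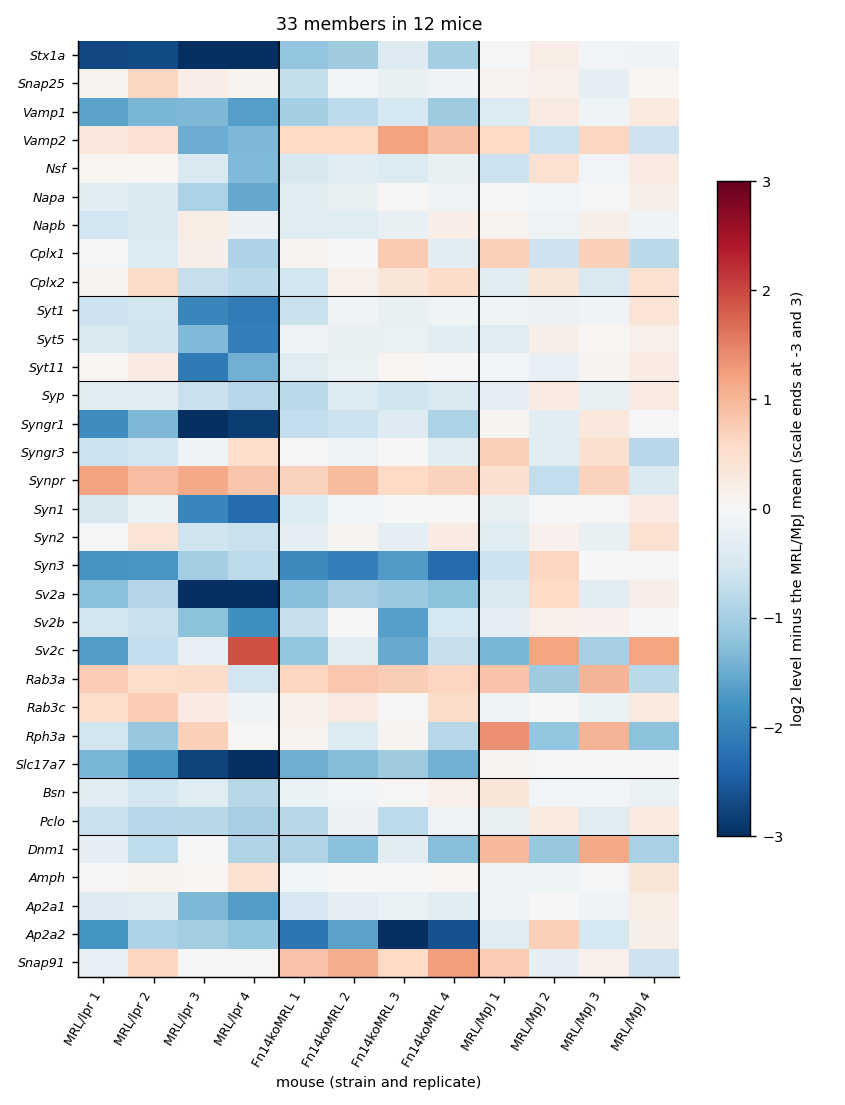
Log2 level of the 33 members valid in all 12 mice, minus the mean of the 4 MRL/MpJ mice (colour scale ends at -3 and 3), with members by role down the side and mice along the bottom. The mean of MRL/lpr 3 and 4, on the weak array, is lower than that of MRL/lpr 1 and 2 for 25 of the 33 members, and Stx1a, Vamp1, Syngr1, Sv2a and Slc17a7 are low in all 4 MRL/lpr mice.

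The dyes differed most in MRL/MpJ, where Cy5 and Cy3 were more than 1 apart on the log2 scale for 8 of the 33 members (Cplx1, Dnm1, Rab3a, Rph3a, Syngr3, Synpr and Vamp2 lower and Sv2c higher in Cy5), compared with 29.5% of all genes. In each of the other strains 1 member was, compared with 3.46% of all genes in MRL/lpr and 2.94% in Fn14koMRL. Rab3a, for example, was at 15.3 and 17.4 in Cy3 and at 4.06 and 4.89 in Cy5 in MRL/MpJ, and at 12.4 to 15.0 in 7 of the other 8 mice. Taken within each dye, 19 of the 33 members were lower in MRL/lpr than in MRL/MpJ in both, 4 were higher in both and 10 differed in sign (22.9% of all genes did). All 7 members called lower were lower within both dyes, from -0.46 in Cy3 for Pclo to -3.32 in Cy5 for Stx1a. The fitted fold change is the mean of the differences within Cy3 and Cy5. For members called by that fit, the shared sign thus follows in large part from the call and is no separate test.

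**Figure D4:**
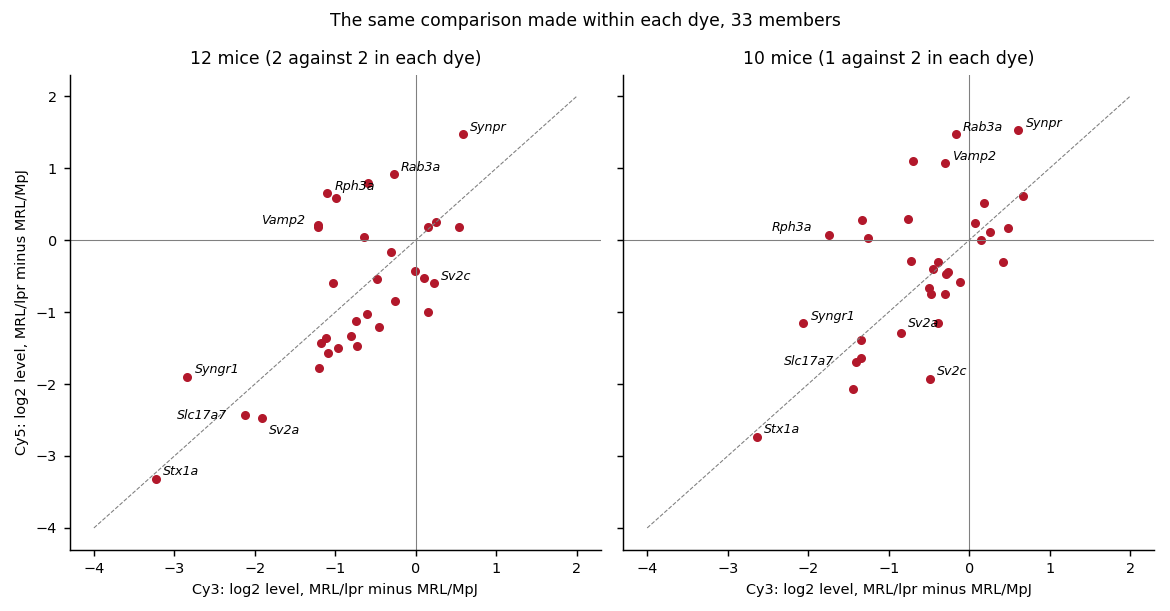
Log2 difference of MRL/lpr and MRL/MpJ within Cy3 (horizontal) and within Cy5 (vertical) for the 33 members, with all 12 mice (left) and without the weak array (right); the dashed line marks equal values. Stx1a lies near it at -3.23 and -3.32, while Rab3a, Vamp2 and Rph3a have opposite signs in the 2 dyes.

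Markers of brain regions and of other cells moved with the same comparisons. Of 5 genes of the neocortex (Cux2, Fezf2, Lamp5, Rorb and Tbr1), 4 were lower and 0 higher in MRL/lpr than in MRL/MpJ in the 10-mouse fit (median log2 fold change -2.36), and 1 of 2 tested was lower in the 12-mouse fit. The remaining gene stood at 0.40 in the 10-mouse fit. Against Fn14koMRL, 4 of the 5 were lower and 1 was higher in MRL/lpr with 10 mice (median -1.96). The summed level of the list was 1.69 to 3.09 in MRL/lpr, 4.16 to 6.54 in Fn14koMRL and 7.63 to 10.6 in MRL/MpJ, the order of the strains for Stx1a, Vamp1 and Syngr1. Not every gene of the list followed that order. Of the hippocampal list of 10 genes, 5 of 8 tested were higher and 0 lower in MRL/lpr with 10 mice (median 1.36) and 1 of 6 with 12 (median 1.28), with sums of 9.75 to 12.7, 5.71 to 8.54 and 5.05 to 7.55 in the 3 strains. Of 10 pan-neuronal genes, 0 were called by limma in the 12-mouse fit, 5 at an unadjusted p under 0.05, with a median of -0.80 and 8 of 10 negative, where the 33 members had a median of -0.52. With 10 mice 1 (Tubb3) was lower and 0 higher, and the median was 0.01, where the 39 members had -0.36. The list had sums of 38.0 and 43.3 in the weak array and of 66.5 to 107 in the other 10 mice. The choroid plexus list summed to 9.41 to 38.0 in MRL/lpr, to 0.582 to 5.48 in Fn14koMRL and to 0.985 to 2.49 in MRL/MpJ. In the 10-mouse fit 4 of its 7 genes were higher in MRL/lpr than in MRL/MpJ (median 3.04), and 4 than in Fn14koMRL (median 2.92), and with 12 mice 1 of 3 in each of these comparisons. The erythroid list summed to 14.9 to 168, 25.5 to 83.6 and 44.8 to 55.5, and 4 of its 5 genes were higher in MRL/lpr than in MRL/MpJ with 10 mice (median 1.87), but 0 of 3 with 12 by limma (0 unadjusted, median 0.34). Of the striatal list, 1 of 6 genes was lower in MRL/lpr than in MRL/MpJ and 3 were higher in Fn14koMRL than in MRL/MpJ with 10 mice. The short lists of astrocytes, oligodendrocytes, microglia, endothelium, thalamus and hypothalamus had at most 2 genes called lower and at most 2 higher in each comparison of both fits (hypothalamus in the 10-mouse fit alone). With 10 mice, 2 of 8 astrocyte genes were lower and 1 was higher in MRL/lpr than in MRL/MpJ, beside 9.61% and 6.11% of all genes. With 12 mice, 2 of 6 microglial genes were lower in MRL/lpr than in MRL/MpJ and 0 higher, beside 5.71% of all genes lower. All 6 were negative (median -1.02), 5 at an unadjusted p under 0.05 in limma. With 10 mice 1 of 8 was lower. Against Fn14koMRL with 12 mice, 3 of 3 endothelial genes were negative (median -1.14) and at an unadjusted p under 0.05, beside 36.2% of all genes. With 10 mice, 2 of 5 thalamic genes were higher in MRL/lpr than in Fn14koMRL, beside 4.09% of all genes. In Fn14koMRL 2 were lower than in MRL/MpJ, beside 11.1%, and in MRL/lpr 1 was lower and 1 higher than in MRL/MpJ. The sums of these lists in MRL/lpr, Fn14koMRL and MRL/MpJ were 17.7 to 56.6, 45.7 to 52.6 and 38.3 to 81.3 for astrocytes, 17.01 to 31.7, 13.4 to 22.5 and 14.2 to 26.3 for oligodendrocytes and 6.79 to 12.3, 7.96 to 9.74 and 9.60 to 15.3 for microglia. They were 2.47 to 5.80, 6.02 to 9.61 and 4.79 to 6.33 for endothelium, 1.33 to 3.73, 1.15 to 1.75 and 1.12 to 1.75 for thalamus and 0.536 to 2.60, 0.464 to 16.0 and 0.353 to 2.10 for hypothalamus. The thalamus list of 5 genes includes Slc17a6, which is itself a member. The part of these markers in the members' differences was not tested, and in whole tissue fewer cells of a type and less RNA per cell cannot be told apart.

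**Figure D5:**
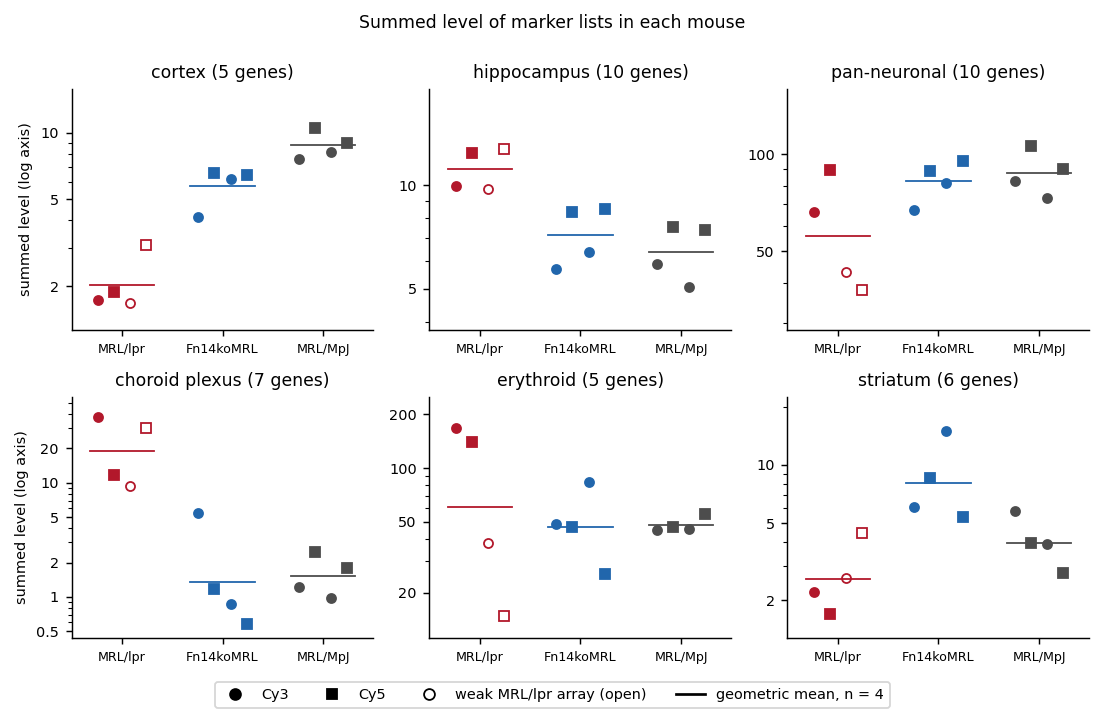
Summed level (log axis) in each mouse of 6 marker lists, by strain; circles are Cy3, squares Cy5, open symbols the weak array and bars geometric means of 4 mice. The cortex list lies at 1.69 to 3.09 in MRL/lpr and at 7.63 to 10.6 in MRL/MpJ, while the hippocampus list lies higher in MRL/lpr than in the other strains.

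The other vesicle genes of a list of 80 (further synaptotagmins, SNAREs, priming and sorting factors, all on the array) were called in both directions. In the 12-mouse fit, 54 were tested, and 7 were lower and 0 higher in MRL/lpr than in MRL/MpJ, led by Rims3, a short RIM isoform gene (-1.68 ± 0.28, adjusted p = 0.0081), Lin7b (-1.45 ± 0.25, adjusted p = 0.0086), Syt13 (-2.40 ± 0.60, adjusted p = 0.035) and Doc2a, which encodes a calcium sensor of release (-1.59 ± 0.40, adjusted p = 0.035). Against Fn14koMRL, Syt10 (2.21 ± 0.32, adjusted p = 0.0073) and Snap23 (1.16 ± 0.25, adjusted p = 0.032) were higher in MRL/lpr and Rims3 was lower (-1.71 ± 0.28, adjusted p = 0.0106). Syt10 was also the only 1 of the 54 called in Fn14koMRL against MRL/MpJ (-2.58 ± 0.32, adjusted p = 0.025). In the 10-mouse fit, 77 were tested, with 10 lower and 3 higher in MRL/lpr than in MRL/MpJ, 10 lower and 4 higher than in Fn14koMRL, and 8 lower and 9 higher in Fn14koMRL than in MRL/MpJ. The median log2 fold change of the list was -0.16, -0.25 and 0.11 there, that of all genes -0.10, -0.04 and -0.07. With 12 mice the median of the list was -0.38, -0.33 and -0.10, that of all genes -0.01, 0.03 and -0.16. In MRL/lpr against MRL/MpJ the 33 members stood at -0.52 with 12 mice. Of all genes with 12 mice, 5.71%, 1.77% and 0.474% were called lower and 3.46%, 2.21% and 0.0451% higher. With 10 mice, 9.61%, 5.03% and 11.1% were called lower and 6.11%, 4.09% and 10% higher.

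The 250 bases before the transcription start of 4 members, Stx1a, Slc17a7, Sv2a and Vamp1, are given below from RefSeq (GRCm38.p6, plus strand for each). They are among the members called lower in MRL/lpr than in MRL/MpJ in both fits. Syngr1 and Syn3 were called lower in both fits too and are not printed. Capitals mark GGGCGG (the GC box) and TGACG (the core of the cAMP response element) on either strand; GC boxes can overlap each other.
Stx1a, chr5:135023232-135023481: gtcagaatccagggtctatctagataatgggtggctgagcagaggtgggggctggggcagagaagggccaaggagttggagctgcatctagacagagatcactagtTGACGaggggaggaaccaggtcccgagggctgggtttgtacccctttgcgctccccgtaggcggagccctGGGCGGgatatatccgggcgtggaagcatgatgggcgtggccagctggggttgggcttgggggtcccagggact
Slc17a7, chr7:45163671-45163920: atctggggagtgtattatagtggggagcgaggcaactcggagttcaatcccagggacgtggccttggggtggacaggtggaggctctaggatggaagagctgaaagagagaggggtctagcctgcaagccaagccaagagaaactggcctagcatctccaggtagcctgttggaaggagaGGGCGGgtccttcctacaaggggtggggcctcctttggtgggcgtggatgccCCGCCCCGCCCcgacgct
Sv2a, chr3:96180977-96181226: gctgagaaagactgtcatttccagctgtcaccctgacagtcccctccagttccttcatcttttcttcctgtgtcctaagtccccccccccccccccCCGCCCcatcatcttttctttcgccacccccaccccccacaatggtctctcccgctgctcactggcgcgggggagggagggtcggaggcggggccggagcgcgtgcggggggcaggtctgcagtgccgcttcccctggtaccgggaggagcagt
Vamp1, chr6:125215331-125215580: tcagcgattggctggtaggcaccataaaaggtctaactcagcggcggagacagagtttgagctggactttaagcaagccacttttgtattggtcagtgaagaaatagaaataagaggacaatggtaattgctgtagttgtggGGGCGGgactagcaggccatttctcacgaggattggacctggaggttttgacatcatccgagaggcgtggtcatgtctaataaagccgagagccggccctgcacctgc

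Each of the 4 sequences held a GC box, 3 of them in Slc17a7 and 1 in each of the others, and TGACG was found in Stx1a alone. RefSeq gave 44 such promoters for 33 of the 40 members. A GC box lay in 25 of the 44 (56.8%), compared with 32.8% of 32841 promoters of all genes, and TGACG in 7 (15.9%, compared with 17.8%). The CCAAT box was found in 12 of them (27.3%, compared with 33.9%) and TATAAA in 2 (4.55%, compared with 12.4%). These matches describe the letters in the window and say nothing of what binds there.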

How the data were processed

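RNA of 12 hippocampi was hybridised to 6 2-colour arrays, 2 mice of a strain to an array. The deposited files hold the intensity of each spot as the authors obtained it with Agilent Feature Extraction 12.1, with mean foreground, median background, flags and processed signals, and probe positions in mm9. Nothing was normalised between arrays in the columns used.

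The local background was subtracted from each channel, and a spot was kept when it was unflagged and its foreground was at least 2 times background in all 12 mice (10877 spots, 8864 genes) or in the 10 mice without the weak array (25621 spots, 17936 genes). In MRL/MpJ replicates 2 and 4, the Cy5 channels, 99.7% and 99.6% of spots met this rule, while 29.6% and 31.8% were well above background. The rule thus removed few dim spots in these channels. In the other 10 channels the shares were 32.85% to 81.3% and 19.6% to 68.1%. Signals were divided by the channel median, spots of a gene averaged, and log2 values fitted with limma 3.58.1 (R 4.3.3) on strain and dye, with a trended prior and Benjamini-Hochberg adjustment over all genes at 0.05. The number of arrays limits the precision. Nothing in the sources ties replicates to more than separate mice, and 2 mice share each array, so the exact two-sided permutation test over 4 against 4 mice and the fit without an array block both treat mice of an array as independent. With 2 mice against 4, no permutation p can be below 0.0667. The fitting code was tested on simulated data.

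The members, the list of other vesicle genes and the marker lists were chosen with earlier results of these data known. A gene of the cortex list is not reported here and was left out of its sums and counts. All 40 members are accounted for. Values in every mouse are given for members called in either fit and for Stx1a, Snap25, Vamp2, Syt1, Syp and Slc17a7, and other vesicle genes were named by the smallest adjusted p, at most 4 a comparison. Syt2 to Syt4, Syt7, Rims1, Unc13a and Slc17a6 had no spot kept in all 12 mice, and their levels come from all spots, scaled on the kept ones. The alternatives were other filters, background corrections, scalings, blocks, weights and the methods' heteroscedastic test, with leaving out each mouse in turn.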

Additional observations from a re-analysis of the deposited data

Results flagged for a closer look

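In 8 of 117 groups of 4 mice, the highest mouse stood apart from the other 3 by more than Dixon's 95% criterion allows, which chance exceeds in about 1 of 20 groups. Stx1a was at 6.75 channel medians in Fn14koMRL replicate 3, where the others were at 3.92 to 4.33, and at 10.4 in MRL/MpJ replicate 2, where the others were at 8.20 to 8.55. Syt1 was at 22.0 in MRL/MpJ replicate 4, compared with 14.9 to 15.6. Sv2c was at 1.02 in MRL/lpr replicate 4, a mouse of the weak array, compared with 0.0849 to 0.227. Amph was at 5.27 in MRL/lpr replicate 4, compared with 3.93 to 4.14, and at 4.89 in MRL/MpJ replicate 4, compared with 3.43 to 3.68. Syt4 was at 0.740 in MRL/lpr replicate 2, compared with 0.260 to 0.333, and Syt7 at 0.229 in Fn14koMRL replicate 3, compared with 0.164 to 0.172.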

How the results depend on the processing

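Stx1a stayed negative and called in MRL/lpr against MRL/MpJ in 26 of 29 alternatives (-3.81 to -2.53, adjusted p up to 0.49) and against Fn14koMRL in 25 of 29, Slc17a7 and Vamp1 in 25 of 30 and Syngr1 in 24 of 29. Against MRL/MpJ these 4 genes kept their call when any 1 of the 12 mice was left out. Sv2a and Syn3 kept it in 15 of 29 alternatives, Synpr in 11 of 29 and Pclo in 10 of 30, Syngr1 against Fn14koMRL in 10 of 29, and Ap2a2 and Syn3 in Fn14koMRL against MRL/MpJ in 14 and 13 of 29. All these alternatives include the 12 fits that each leave out 1 mouse. They also include the methods' test with an unadjusted p under 0.05 taken as a call, a looser rule than in the other alternatives. The sign turned for Snap25 in MRL/lpr against MRL/MpJ with no filter (-0.29) and the processed signal (-0.031), for Syp with the processed signal (0.17), and for Vamp2 with array weights (0.11), without the weak array (0.38 on the same spots, 0.55 on the spots of the 10 mice) and in Cy5 only (0.18). The causes were not tested.

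In MRL/lpr against MRL/MpJ, 8 members and 813 genes were called. With no filter on dim spots these were 1 and 294, with the processed signal 16 and 1202, with quantile normalization 5 and 449, with array as a random block 1 and 7, and with the negative-control background 15 and 2394. Spots well above background in all 12 mice gave 504 genes, array weights (whose estimation stopped before convergence) 1450, and leaving out the weak array 1608 on the same spots and 2818 on the spots of the 10 mice. The methods' heteroscedastic test called 15 members and 1403 genes unadjusted and 0 and 0 after Benjamini-Hochberg. Within Cy3 only and Cy5 only, limma called 0 members (7 and 11 at an unadjusted p under 0.05) and 0 genes (667 and 1709).

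In MRL/lpr against Fn14koMRL, 2 members and 353 genes were called. The counts were 6 and 3787 with no filter, 1 and 207 with spots well above background, 4 and 647 with the processed signal, 1 and 147 with quantile normalization, 1 and 198 with the negative-control background and 1 and 135 with dye fitted within strain. With array as a random block they were 0 (3 unadjusted) and 4. Array weights gave 901 genes and leaving out the weak array 640 and 1636. The methods' test called 10 members and 1155 genes unadjusted and 0 and 0 adjusted. Cy3 only and Cy5 only gave 0 members in limma (2 and 2 unadjusted) and 0 genes (671 and 757).

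In Fn14koMRL against MRL/MpJ, 2 members and 46 genes were called. In limma the counts were 0 and 0 with no filter (5 and 2590 unadjusted), with quantile normalization (8 and 1009) and with array as a random block (3 and 311), 1 and 90 with spots well above background, and 0 (11 unadjusted) and 14 with the negative-control background. Array weights gave 17 and 3414, and leaving out the weak array 14 and 2494 on the same spots and 13 and 3785 on those of the 10 mice. The weak array holds no mouse of these strains, so that on the same spots only the estimate of spread changed, not the fold changes. Genes called were 19 with no dye covariate and 275 with dye fitted within strain. The methods' test called 10 members and 1493 genes unadjusted and 1 and 8 adjusted. Cy3 only and Cy5 only gave 0 members in limma (4 and 6 unadjusted) and 0 genes (165 and 1295).

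Leaving out each mouse in turn gave 4 to 15 members and 126 to 3467 genes in MRL/lpr against MRL/MpJ, 1 to 12 and 40 to 4298 against Fn14koMRL, and 0 to 3 and 0 to 126 for Fn14koMRL against MRL/MpJ. The high counts came without MRL/lpr replicate 1 (14 and 10 members in the first 2 comparisons) or replicate 2 (15 and 12), which leaves 1 mouse outside the weak array. With no filter the median of the genes moved by -0.54, -1.46 and 0.92 (log2) in the 3 comparisons, with spots well above background by 0.22, 0.26 and -0.04, with the processed signal by 0.16 in the last, with quantile normalization by -0.12 in the second, and within Cy3 by 0.16, -0.02 and 0.18, with the opposite signs within Cy5.

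The replicate number also holds the dye. With the dye removed, 3 of 12 same-numbered pairs correlated above 0.1 (-0.64 to 0.37). The replicate number also follows the array, so that these correlations cannot decide whether same-numbered mice were paired. With the replicate block, limma called 5 members and 505 genes in MRL/lpr against MRL/MpJ, 1 and 179 against Fn14koMRL, and 0 (9 unadjusted) and 0 (1235) in Fn14koMRL against MRL/MpJ. The negative-control background, the dye fitted within strain and the single dyes were chosen after seeing the data. Spots near background, in the weak array and in Cy5 of MRL/MpJ, limit what can be read from dim members.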
